A study of Mus musculus with 6 samples.

Results

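The platelet-derived growth factor (PDGF) and vascular endothelial growth factor (VEGF) genes described here are 10 genes of 39179 listed in an RPKM table (reads scaled to the length of the gene and to the reads counted in the library) of mouse Ocy454 cells. They were chosen by symbol with their RPKM in these libraries and the called fall of Pdgfa already known: the PDGF ligands Pdgfa, Pdgfb, Pdgfc and Pdgfd, the PDGF receptors Pdgfra and Pdgfrb, and the VEGF ligands Vegfa, Vegfb, Vegfc and Figf, an older symbol of Vegfd. Ocy454 is a mouse osteocyte-like cell line, and the study used a subclone grown from a single cell, so each library came from the same clone. The cells were held at 37 °C for 14 days and then treated for 4 h. The vehicle group received the solvents only, the PTH group received 1 nM parathyroid hormone, and the YKL-05-093 group received 0.5 µM YKL-05-093, an inhibitor of the salt-inducible kinases, with 2 libraries in each group. YKL-05-093 is not selective for these kinases: the study's panel of recombinant kinases, tested at a lower concentration than that used on the cells, lists strong inhibition of both PDGF receptors and of Src, and partial inhibition of VEGFR2, the product of Kdr. The libraries held 17505798 to 27983585 counted reads, and the smallest and the largest were vehicle replicates 1 and 2. The vehicle pair also differed more than the other pairs, with a median absolute log2 gap of 0.333 over the genes tested, beside 0.108 in PTH and 0.103 in YKL-05-093. The libraries were duplicates that the labels do not tie to separate cultures, so every p-value measures only the spread between these libraries.

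PDGF ligands are secreted dimers that drive the growth and migration of mesenchymal cells. PDGF-A and PDGF-C signal mainly through the receptor encoded by Pdgfra, and PDGF-B and PDGF-D mainly through that encoded by Pdgfrb. VEGF-A is the principal signal for blood vessel growth and is made by bone cells, VEGF-B acts through Flt1, and VEGF-C and VEGF-D act mainly on lymphatic vessels. PTH acts on bone cells through Pth1r, cyclic AMP and protein kinase A, and protein kinase A is known to phosphorylate and restrain the salt-inducible kinases. The design sets the hormone beside an inhibitor that acts on these kinases, on the PDGF receptors and on several other kinases of the panel. Effects of YKL-05-093 through any of these cannot be told apart in these libraries. The study measured selected genes in cells deficient in the salt-inducible kinases SIK2 and SIK3, which are not among these libraries. It reports that regulation by YKL-05-093 depended on these kinases for most of the genes measured and not for the rest. It also reports, by RT-qPCR of bone from mice given YKL-05-093, a change of Pdgfa RNA in the direction predicted from the cultured cells.

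Of the 8 genes tested, Pdgfa was the only one called in any comparison, at more than 2-fold and an adjusted p under 0.05. Its RNA fell to 17.4% of the vehicle mean under PTH and to 39.7% under YKL-05-093, and it was lower under PTH than under YKL-05-093. Pdgfd, the other abundant PDGF ligand, kept 96.6% of its vehicle mean under PTH and stood at 118% of it under YKL-05-093, so the most abundant PDGF ligand RNA was Pdgfa in vehicle and Pdgfd in both treated groups. No tested VEGF ligand and neither PDGF receptor differed more than 2-fold from vehicle at an adjusted p under 0.05. Vegfc, at 5 to 23 reads, was not tested. Among the other receptors of the same ligands, Nrp1, a co-receptor of VEGF-A and of semaphorins, rose under PTH, and Kdr, the main signalling receptor of VEGF-A, rose from a low level under YKL-05-093.

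The sequences just upstream of the RefSeq transcript starts are shown for Pdgfa, the member that was called, with those of Vegfa, a member of similar abundance that was not called against vehicle, and Nrp1, which rose. They are from the RefSeq promoter table on GRCm38.p6, written 5′ to 3′ on the strand of the gene, and of each 250-base window the longest stretch free of exons of the same gene in GENCODE M21 is shown, which is the whole window for Vegfa and Nrp1. Capitals mark the GC box GGGCGG and the cyclic AMP response element (CRE) half-site TGACG, each searched on both strands.
Pdgfa, first start, chr5:138995038-138995194, minus strand: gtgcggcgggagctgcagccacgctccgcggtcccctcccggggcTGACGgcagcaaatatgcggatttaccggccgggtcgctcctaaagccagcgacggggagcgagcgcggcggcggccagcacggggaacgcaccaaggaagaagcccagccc
Pdgfa, second start, chr5:138994282-138994398, minus strand: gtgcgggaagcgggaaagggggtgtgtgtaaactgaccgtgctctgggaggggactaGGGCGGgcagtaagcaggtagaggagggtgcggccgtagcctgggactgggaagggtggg
Vegfa, first start, chr17:46032378-46032627, minus strand: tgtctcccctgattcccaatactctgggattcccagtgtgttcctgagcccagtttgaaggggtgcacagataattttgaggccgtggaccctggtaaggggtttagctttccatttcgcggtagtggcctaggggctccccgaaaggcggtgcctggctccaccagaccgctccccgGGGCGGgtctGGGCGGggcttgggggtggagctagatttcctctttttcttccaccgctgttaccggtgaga
Nrp1, chr8:128358823-128359072, plus strand: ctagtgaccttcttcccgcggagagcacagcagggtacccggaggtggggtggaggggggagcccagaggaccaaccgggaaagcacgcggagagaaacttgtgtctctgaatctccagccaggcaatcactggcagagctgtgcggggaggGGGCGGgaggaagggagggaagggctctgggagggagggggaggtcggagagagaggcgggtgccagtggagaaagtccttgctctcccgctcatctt

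In the full 250 bases before a start, the first Pdgfa start had 1 CRE half-site, which began 205 bases upstream, and 2 GC boxes, which began 93 and 86 bases upstream. The second Pdgfa start had 1 GC box at 60 bases upstream and no half-site. The first Vegfa start had 2 GC boxes, at 72 and 62 bases upstream, the second Vegfa start, which is not shown since it overlaps exons of the gene, had a CRE half-site at 209 and a GC box at 158 bases upstream, and Nrp1 had 1 at 98 bases upstream. A GC box was present in 32.7% and a CRE half-site in 17.8% of the 32851 promoters in the table, so these letters are common. The complete CRE, TGACGTCA, was in 1.55% of all promoters and in none of the 10 promoters searched here, which belong to 8 of the 10 genes. Of those 8 genes, 4 had a GC box and 3 had a half-site, which were Pdgfa, Pdgfra and Vegfa. Counted by promoter, as the shares over all promoters are, 6 of the 10 had a GC box and 3 a half-site. No promoter was searched for Pdgfb or Pdgfrb, so these counts do not cover them.

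In vehicle, Pdgfrb was the most abundant of the 10 genes per unit length, at 26.5 ± 6.98 RPKM (SD, n = 2), followed by Pdgfa at 26.0 ± 3.82, Pdgfra at 22.0 ± 8.45, Vegfa at 16.8 ± 2.84, Pdgfd at 14.9 ± 0.848 and Vegfb at 13.7 ± 0.502. Pdgfc at 4.16 ± 0.161, Figf at 1.68 ± 0.0536, Pdgfb at 0.433 ± 0.109 and Vegfc at 0.372 ± 0.0946 completed the order. The first 3 genes could not be placed in order, since their vehicle libraries overlapped, and the same held for Pdgfra and Vegfa, for Vegfa and Pdgfd and for Pdgfb and Vegfc. Under PTH, Pdgfa dropped in this order from above 82.3% of the 14264 genes that passed the filter on low values to above 40.6% of them. Under YKL-05-093 it stood above 62.1%. The filter asked for 0.5 RPKM in at least 2 of the 6 libraries, and 8 of the 10 genes passed it, all but Pdgfb and Vegfc.

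**Figure D1:**
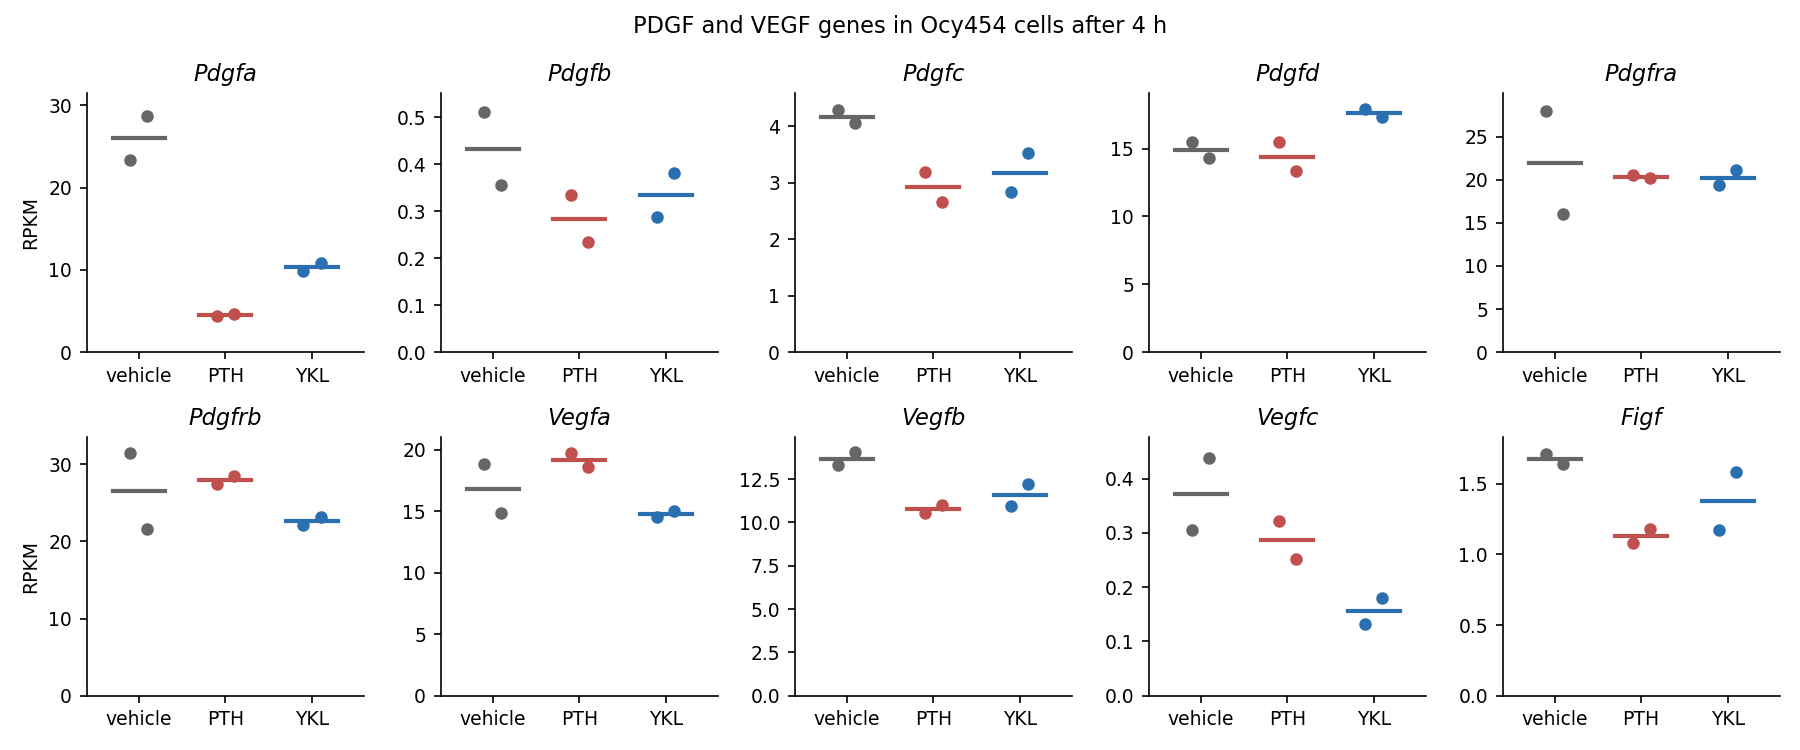
RPKM of each of the 10 genes (linear vertical axes from 0, one scale per gene) in the vehicle, PTH and YKL-05-093 (YKL) groups. Each point is 1 library and each bar the mean of 2. The Pdgfa points of the PTH group, 4.44 and 4.64 RPKM, and of the YKL-05-093 group, 9.86 and 10.8 RPKM, lie below both vehicle points, 23.3 and 28.7 RPKM, whereas the vehicle points of Pdgfra lie on both sides of all treated points.

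PDGF-A is a ligand of the PDGF α receptor and drives the growth of mesenchymal progenitors. Pdgfa (ENSMUSG00000025856, chr5:138976014-138997370, minus strand, GRCm38) had 23.3 and 28.7 RPKM in the vehicle libraries, from 1559 and 3070 reads. It had 4.44 and 4.64 RPKM in the PTH libraries, from 366 and 338 reads. It had 9.86 and 10.8 RPKM in the YKL-05-093 libraries, from 764 and 855 reads. The 3 groups did not overlap, and vehicle was highest and PTH lowest. The members were chosen with results of these data known, so the fitted values that follow describe where the gene stood and are no independent evidence.

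Against vehicle, the log2 fold change of Pdgfa on the log2(RPKM + 0.1) scale was −2.49 under PTH (SE 0.17, 95% interval −2.89 to −2.08, limma with Benjamini-Hochberg adjustment over all genes tested, adjusted p = 0.00143). It ranked 38 from the lowest of 14261 genes tested. It was the 1 called gene of the 8 tested here, at an adjusted p under 0.05 and more than 2-fold, where 1.91% of all genes tested were called and 0.813% were called lower. Under YKL-05-093 it was −1.32 (SE 0.17, 95% interval −1.73 to −0.91, limma, adjusted p = 0.0318), again the 1 called gene of 8, where 0.666% of all genes were called and 0.274% were called lower. The 2 comparisons share the vehicle libraries, and in the direct comparison Pdgfa was lower under PTH than under YKL-05-093 by a log2 fold change of −1.17 (SE 0.09, 95% interval −1.35 to −0.98, limma, adjusted p = 2.3e-07). There 1.21% of all genes were called and 0.47% were called lower. An exact permutation test of 2 libraries against 2 cannot give a two-sided p below 0.333, so the calls rest on a spread shared across genes.

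The Pdgfa calls against vehicle were lost without either library of the treated group. That of PTH against YKL-05-093 was lost without either PTH library and kept without either YKL-05-093 library. In the fits that lost the Pdgfa call, far fewer genes of the whole table were called too, so the loss was not particular to Pdgfa. Without PTH replicate 1 the adjusted p against vehicle was 0.0591 with a log2 fold change of −2.45, and without PTH replicate 2 it was 0.0575 with −2.52 (limma, with the lone library assumed to vary like vehicle). Without YKL-05-093 replicate 1 it was 0.712 with −1.25, and without replicate 2 it was 0.302 with −1.38. PTH against YKL-05-093 gave 0.126 without PTH replicate 1 and 0.120 without PTH replicate 2. The YKL-05-093 call was also lost with a filter at 0.1 RPKM (limma, adjusted p = 0.0507), with median centring (0.0518), with the variance trended on mean value (0.0961) and with no filter (0.189), which also ended the PTH call against vehicle (0.0558). The log2 fold change itself ran from −2.64 to −2.28 for PTH and from −1.47 to −1.17 for YKL-05-093 over 13 alternatives each, while the adjusted p of limma ran from 1.21e-23 to 0.0591 and from 0.00011 to 0.712.

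**Figure D2:**
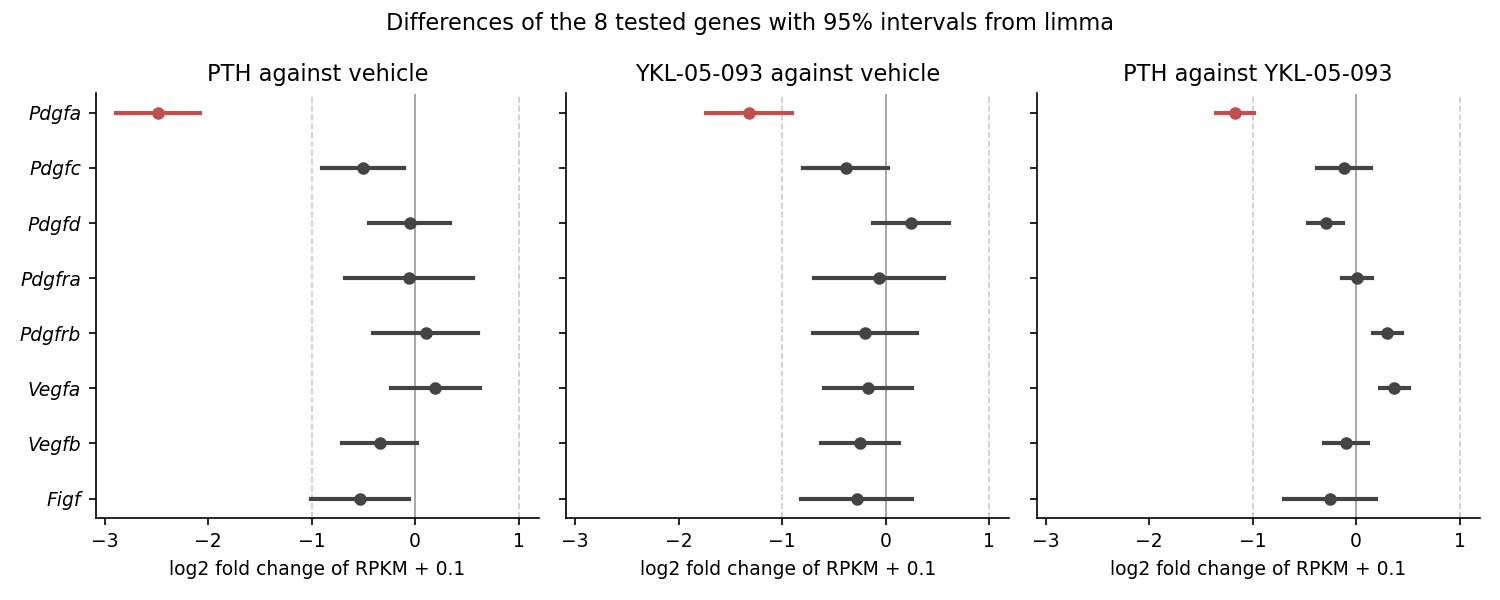
Log2 fold changes of RPKM + 0.1 (horizontal axis) of the 8 genes that passed the filter, in each of the 3 comparisons, with 95% intervals from limma. Red marks a called gene, the solid line no difference and the dashed lines 2-fold. Pdgfa, at −2.49, −1.32 and −1.17, is the only called gene in each panel.

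A gene on the opposite strand moved with Pdgfa. 6330403L08Rik (ENSMUSG00000075585, chr5:138995056-139000577, plus strand) starts 112 bases upstream of the first RefSeq start of Pdgfa and shares 813 exon bases with it, which is 26.1% of the merged Pdgfa exons in GENCODE M21. It had 3.01 and 2.63 RPKM in vehicle, 1.15 and 0.788 under PTH, and 1.13 and 0.934 under YKL-05-093, from 83 to 407 reads. Both treated groups lay below vehicle and overlapped each other. Its log2 fold change was −1.47 under PTH (SE 0.21, limma, adjusted p = 0.0177) and −1.37 under YKL-05-093 (SE 0.18, limma, adjusted p = 0.0318), and −0.10 between the treatments (limma, adjusted p = 0.826). The strand setting of the read counting is not given in the sources used here, and without it reads of the shared bases cannot be assigned to one gene or the other. Its reads in vehicle, 291 and 407, were fewer than the 1559 and 3070 of Pdgfa. Its calls were also lost without either library of the treated group (limma, adjusted p from 0.139 to 0.398 over these 4 fits), and under YKL-05-093 without vehicle replicate 1 (0.0906) and with a filter at 0.1 RPKM (0.0516). They were lost as well with the variance trended on mean value (0.0795 for PTH and 0.140 for YKL-05-093), with no filter (0.137 and 0.189) and with a pseudocount of 1 (log2 fold change −0.96 for PTH, and −0.91 with 0.0576 for YKL-05-093). Pdgfc and Pdgfra also share exon bases with annotated genes on the opposite strand, 147 for Pdgfc, and the other members share none apart from Pdgfa.

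PDGF-D is a ligand of the PDGF β receptor that is secreted with a blocking domain and freed by proteases. Its RNA was the other abundant PDGF ligand RNA. Pdgfd (chr9:6168584-6378850, plus strand) had 15.5 and 14.3 RPKM in vehicle, 15.5 and 13.3 under PTH and 17.9 and 17.3 under YKL-05-093. The PTH libraries overlapped vehicle, and both YKL-05-093 libraries lay above both. The log2 fold change was −0.05 for PTH (95% interval −0.44 to 0.34) and 0.24 for YKL-05-093 (−0.12 to 0.61), neither called. PTH was lower than YKL-05-093 by −0.29 (SE 0.08, limma, adjusted p = 0.027), which is under 2-fold.

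The RNA of PDGF-C, a ligand that also needs proteolysis to become active, was lower in each treated library than in vehicle but not called. Pdgfc (chr3:81036416-81214040, plus strand) had 4.28 and 4.05 RPKM in vehicle, 3.18 and 2.65 under PTH and 2.83 and 3.52 under YKL-05-093. Its log2 fold changes were −0.50 (95% interval −0.90 to −0.11, limma, adjusted p = 0.248) and −0.39 (−0.80 to 0.02, limma, adjusted p = 0.615). Pdgfb, the ligand best known for drawing pericytes to vessels, was near the lower end of detection, with 13 to 29 reads and 0.234 to 0.510 RPKM, and it did not enter the fit. Its PTH libraries, 0.334 and 0.234, lay below the vehicle libraries, 0.510 and 0.356, and the YKL-05-093 libraries, 0.288 and 0.381, overlapped both.

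As shares of the summed RPKM of the PDGF ligands, Pdgfa made up 53.5% and 60.6% in the vehicle libraries, 18.9% and 22.3% in the PTH libraries and 31.9% and 33.7% in the YKL-05-093 libraries. Pdgfd made up 35.5% and 30.1%, then 66.0% and 63.9%, then 58% and 54.1%. The ratio of Pdgfa to Pdgfd, which does not depend on the scaling of a library, was 1.51 and 2.01 in vehicle, 0.287 and 0.348 under PTH and 0.550 and 0.624 under YKL-05-093, with no overlap between groups. The summed RPKM of the ligands was 45.5 ± 2.71 in vehicle (SD, n = 2), 22.1 ± 1.82 under PTH and 31.5 ± 0.779 under YKL-05-093. In the VEGF ligand RNA, Vegfa made up 51.5% ± 5.09 in vehicle (SD, n = 2), 61.1% ± 1.72 under PTH and 53.1% ± 1.75 under YKL-05-093.

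**Figure D3:**
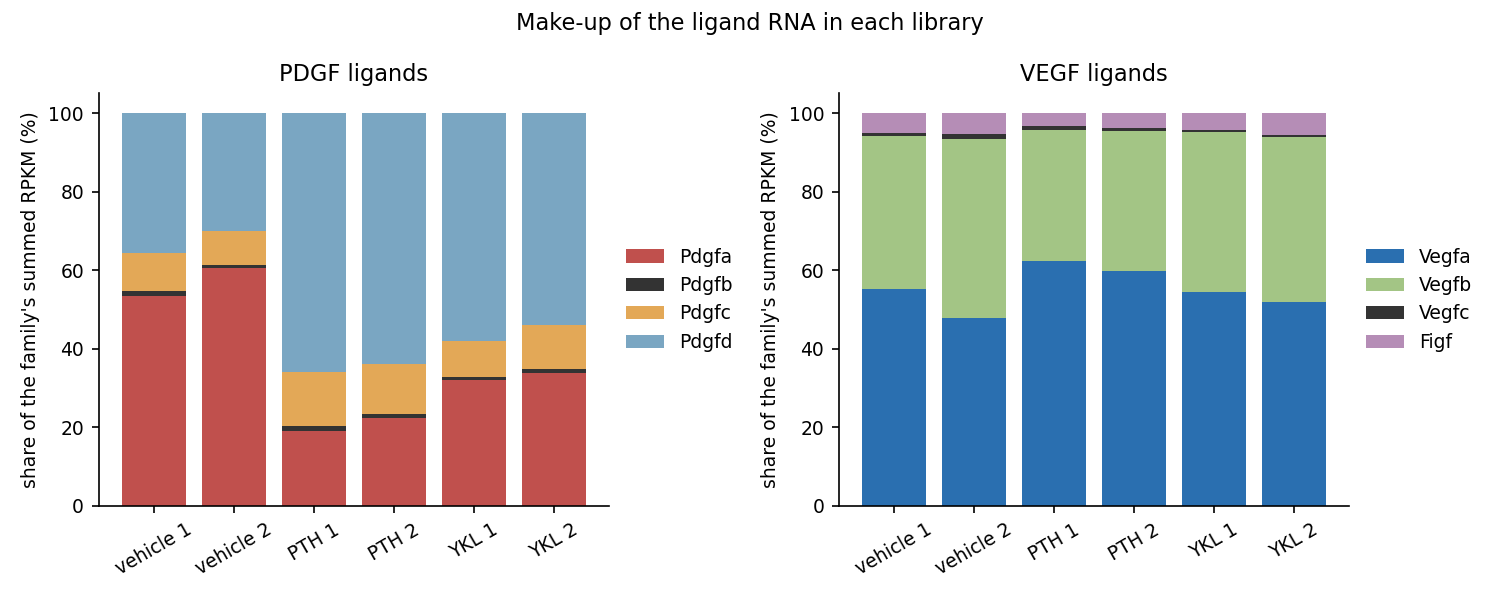
Share of each ligand in the summed RPKM of its family (%) in each of the 6 libraries, for PDGF ligands (left) and VEGF ligands (right). Pdgfa is 53.5% and 60.6% of the PDGF ligand RNA in vehicle and 18.9% to 33.7% in the treated libraries, while Vegfa is 47.9% to 62.3% of the VEGF ligand RNA throughout.

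Both PDGF receptors, tyrosine kinases of mesenchymal cells, were among the most abundant genes of the set in every group. Pdgfra (chr5:75152292-75198215, plus strand) had 28 and 16 RPKM in vehicle, 20.5 and 20.2 under PTH and 19.4 and 21.1 under YKL-05-093. Each treated library lay between the 2 vehicle libraries, whose 1.75-fold distance was larger than that of 90.0% of the genes tested. Its log2 fold changes were −0.06 (95% interval −0.68 to 0.56) for PTH and −0.07 (−0.70 to 0.57) for YKL-05-093, so differences inside these intervals were not detectable with this vehicle pair. Between the treatments, whose libraries lay closer together, the difference was 0.01 (−0.13 to 0.15).

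Pdgfrb had 31.5 and 21.6 RPKM in vehicle, 27.4 and 28.5 under PTH and 22.1 and 23.2 under YKL-05-093. Both treated pairs lay between the vehicle libraries and did not overlap each other. The log2 fold changes were 0.10 (95% interval −0.40 to 0.61) and −0.20 (−0.71 to 0.31), and PTH was higher than YKL-05-093 by 0.30 (SE 0.07, limma, adjusted p = 0.00621), which is under 2-fold. The ratio of Pdgfra to Pdgfrb stayed between 0.707 and 0.908 over the 6 libraries.

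Vegfa had the highest RPKM of the VEGF ligand genes in each library. In vehicle replicate 2 the lead was small, at 47.9% of the summed RPKM beside 45.4% for Vegfb. Vegfa (chr17:46016993-46032369, minus strand) had 18.8 and 14.8 RPKM in vehicle, 19.8 and 18.6 under PTH and 14.6 and 15.0 under YKL-05-093. The PTH libraries lay above the YKL-05-093 libraries, and each pair overlapped vehicle. The log2 fold changes against vehicle were 0.20 (95% interval −0.23 to 0.63) for PTH and −0.17 (−0.60 to 0.25) for YKL-05-093. PTH was higher than YKL-05-093 by 0.37 (SE 0.07, limma, adjusted p = 0.00142), a 1.29-fold difference. With no limit on the fold, 4 of the 8 genes passed in this comparison, Vegfa and Pdgfrb higher and Pdgfa and Pdgfd lower under PTH, where 4.88% of all genes passed higher and 5.14% lower.

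Vegfb, a ligand of Flt1 (chr19:6982473-6987651, minus strand), had 13.3 and 14.0 RPKM in vehicle, 10.5 and 11 under PTH and 10.9 and 12.2 under YKL-05-093. Both treated pairs lay below vehicle, with log2 fold changes of −0.34 (95% interval −0.71 to 0.02, limma, adjusted p = 0.405) and −0.24 (−0.62 to 0.13, limma, adjusted p = 0.793). Figf, one of the lymphatic ligands (chrX:164373378-164402650, plus strand), had 1.71 and 1.64 RPKM in vehicle, 1.08 and 1.18 under PTH and 1.17 and 1.59 under YKL-05-093. Its treated libraries also lay below vehicle, with log2 fold changes of −0.53 (−1.01 to −0.06, limma, adjusted p = 0.316) and −0.28 (−0.81 to 0.26, limma, adjusted p = 0.838). Vegfc, the other lymphatic ligand, had 10 and 23 reads in vehicle, 13 and 9 under PTH and 5 and 7 under YKL-05-093, and did not enter the fit. Its RPKM was 0.305 and 0.439, 0.321 and 0.252, and 0.132 and 0.180, so only the YKL-05-093 pair lay below vehicle. The YKL-05-093 mean of Vegfc was 41.9% of its vehicle mean. With a filter at 0.1 RPKM, which let Vegfc in, its log2 fold change there was −0.87 (95% interval −1.74 to −0.0086, limma, adjusted p = 0.607).

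Counted over all 10 genes, 5 lay below both vehicle libraries in both PTH libraries and none above, where 24.0% of the genes tested lay below in the same way and 19.1% above. Under YKL-05-093, 5 lay below and 1, Pdgfd, above, where 22.1% lay below and 15.7% above. PTH lay below YKL-05-093 for 2 and above it for 3, where 23.7% and 26.3% did so. The shares cover only genes that passed the filter, whereas the counts include Pdgfb and Vegfc, which did not. Pdgfb was among those below under PTH. Vegfc was among those below under YKL-05-093 and those higher under PTH than under YKL-05-093. The 8 tested genes had a median log2 fold change of −0.20 for PTH, beside −0.03 over all genes tested, and one of −0.22 for YKL-05-093, beside −0.04. Of these genes only Pdgfa was called.

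The remaining ligands and receptors of the families were Pgf, Flt1, Kdr, Flt4, Nrp1, Nrp2 and Pdgfrl, all 7 of which passed the filter. In each comparison 1 of the 7 was called, higher, where 1.91% (PTH), 0.666% (YKL-05-093) and 1.21% (PTH against YKL-05-093) of all genes were called. Nrp1 had 5.14 and 2.91 RPKM in vehicle, 22.4 and 22.4 under PTH and 8.48 and 8.64 under YKL-05-093. It rose by a log2 fold change of 2.50 under PTH (SE 0.26, limma, adjusted p = 0.00474) and was higher under PTH than under YKL-05-093 by 1.38 (SE 0.07, limma, adjusted p = 1.42e-09). Under YKL-05-093 its libraries lay above vehicle, with 1.13 (95% interval 0.51 to 1.74, limma, adjusted p = 0.171), which was not called. Nrp1 thus stood opposite to Pdgfa in its order of groups, with PTH highest and vehicle lowest. Without PTH replicate 1 or 2 the adjusted p of its PTH call was 0.0872 or 0.0828, and that of PTH against YKL-05-093 0.126 or 0.120. With no filter the PTH call was lost as well (0.0876). Without vehicle replicate 1 Nrp1 was called under YKL-05-093 as well, at 1.53 and an adjusted p of 0.0342 (limma).

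Kdr had 0.582 and 0.476 RPKM in vehicle, 0.812 and 1.06 under PTH and 1.72 and 1.43 under YKL-05-093, from 65 to 223 reads. The 3 groups did not overlap, and the YKL-05-093 libraries were highest. It rose by 1.42 under YKL-05-093 (SE 0.20, limma, adjusted p = 0.0378), whereas PTH gave 0.71 (95% interval 0.21 to 1.22, limma, adjusted p = 0.201). PTH was lower than YKL-05-093 by −0.70 (SE 0.15, limma, adjusted p = 0.00603), under 2-fold. The call was lost with a pseudocount of 1 (log2 fold change 0.75, limma, adjusted p = 0.101), with a filter at 0.1 RPKM (0.0571), with no filter (0.198), with the variance trended on mean value (0.210), without vehicle replicate 1 (0.0816) and without YKL-05-093 replicate 1 (0.543) or 2 (0.0986). Over 13 alternatives its adjusted p from limma ran from 8.76e-06 to 0.543, and 7 of them ended the call. None of Pgf, Flt1, Flt4, Nrp2 and Pdgfrl was called in a comparison, although Pgf was in PTH against YKL-05-093 with a pseudocount of 0.01 (log2 fold change 1.06, limma, adjusted p = 0.0438). Nrp2, a co-receptor for VEGF-C, was the most abundant of the 7 at 27.0 to 44.4 RPKM, the VEGF-A receptor Flt1 had 0.721 to 1.36, the VEGF-C receptor Flt4 0.537 to 0.731, Pgf, which encodes placental growth factor, 0.582 to 1.5 and the receptor-like gene Pdgfrl 4.76 to 6.93.

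Of 11 genes for ligand processing and extracellular binding, 7 were tested, and 1 was called higher and 1 lower in each comparison with vehicle, where 1.91% (PTH) and 0.666% (YKL-05-093) of all genes were called. Plau, which encodes the urokinase protease known to process PDGF-D, had 16.5 and 17.1 RPKM in vehicle, 38.1 and 38.4 under PTH and 42.4 and 38.1 under YKL-05-093. It rose by 1.18 (SE 0.15, limma, adjusted p = 0.012) and by 1.26 (SE 0.16, limma, adjusted p = 0.0279). Thbs1, an extracellular matrix protein that inhibits vessel growth and binds VEGF, had 64.8 and 43.0 RPKM in vehicle, 15.0 and 16.3 under PTH and 15.3 and 17.0 under YKL-05-093. It fell by −1.75 (SE 0.23, limma, adjusted p = 0.0115) and by −1.70 (SE 0.23, limma, adjusted p = 0.0318). Neither differed between the treatments by a call. Sparc, which binds PDGF-B, and the proteases Furin, Pcsk6, Plat and Ctsd were not called.

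Of 30 genes for adaptors and effectors of these receptors, 28 were tested, and 2 were called higher under PTH and 1 under YKL-05-093, with none lower, where 1.91% and 0.666% of all genes were called in either direction. Shc2, an adaptor of receptor tyrosine kinases, had 1.85 and 1.58 RPKM in vehicle, 12.5 and 11.2 under PTH and 7.11 and 7.29 under YKL-05-093. It rose by 2.73 (SE 0.17, limma, adjusted p = 0.00101) and by 2.01 (SE 0.16, limma, adjusted p = 0.00804). Stat3, a transcription factor used by many cytokine and growth factor receptors, had 13.8 and 9.89 RPKM in vehicle, 29.4 and 27.6 under PTH and 16.9 and 17.9 under YKL-05-093, and rose by 1.28 under PTH (SE 0.21, limma, adjusted p = 0.0255). The list had a median log2 fold change of −0.01 under PTH and 0.0047 under YKL-05-093, beside −0.03 and −0.04 over all genes tested, and in each comparison with vehicle 14 genes had a value below 0 and 14 above, from −0.42 to 2.73 for PTH and from −0.49 to 2.01 for YKL-05-093. Leaving out either treated library lost the calls of Plau, Thbs1 and Stat3 (limma, adjusted p from 0.165 to 0.728), and leaving out YKL-05-093 replicate 1 lost that of Shc2 under YKL-05-093 (0.0684). The Plau call under YKL-05-093 was also lost without vehicle replicate 1 (0.0538). With the variance trended on mean value, the calls of Plau (0.0855), Thbs1 (0.105) and Shc2 (0.0569) under YKL-05-093 and of Stat3 (0.0586) under PTH were lost, and that of Thbs1 under YKL-05-093 was lost with a pseudocount of 1 (0.0521) and with a filter at 0.1 RPKM (0.0516). With no filter all calls of these 4 genes were lost (limma, adjusted p from 0.0558 to 0.232).

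**Figure D4:**
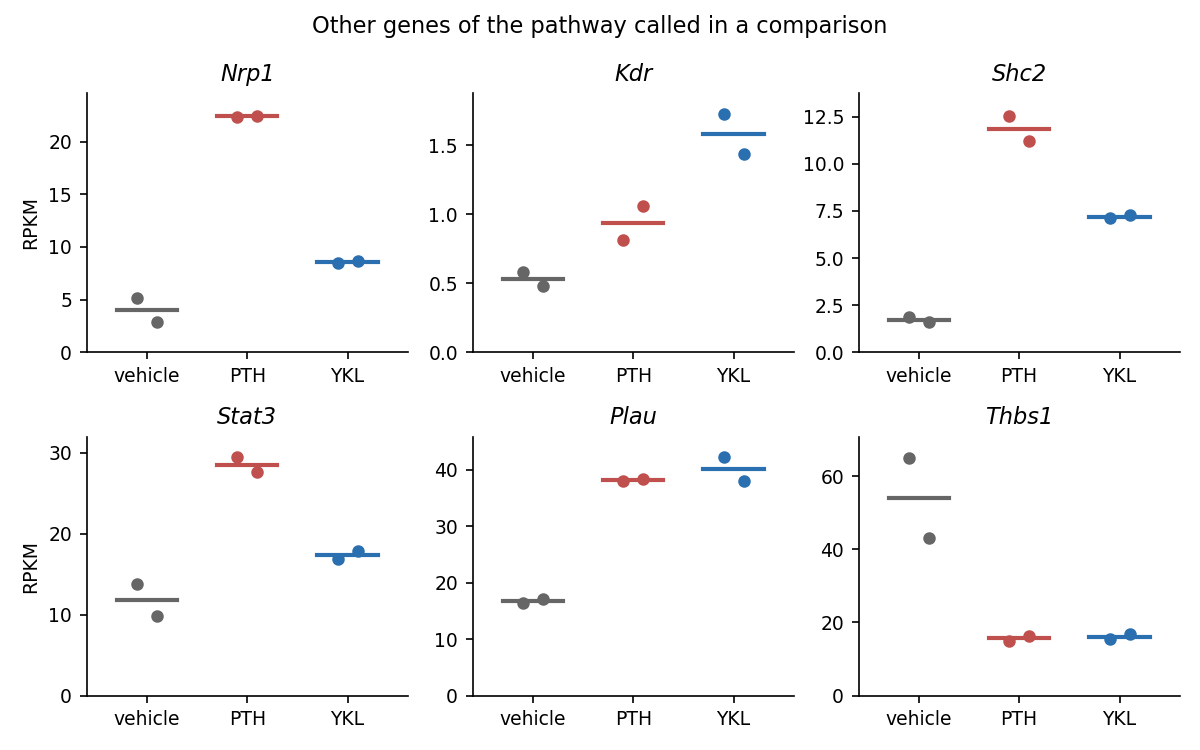
RPKM (linear vertical axes from 0) of the 6 other genes of the pathway that were called in a comparison, in the vehicle, PTH and YKL-05-093 (YKL) groups, with 1 point per library and a bar at the mean of 2. Nrp1 reaches 22.4 RPKM in both PTH libraries against 5.14 and 2.91 in vehicle, Kdr is highest under YKL-05-093 at 1.72 and 1.43, and Thbs1 lies at 15.0 to 17.0 in all 4 treated libraries.

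Vegfa is a textbook target of the hypoxia-inducible factors, so their pathway and targets were read beside it. None of 7 tested genes of 10 in the hypoxia-inducible factor pathway and none of 18 tested target genes of 18 was called by limma in any comparison. Against vehicle, the pathway had a median log2 fold change of 0.02 under PTH and of −0.04 under YKL-05-093, and the targets one of −0.22 and −0.05. At no limit on the fold, 0 of the 18 targets passed in either comparison with vehicle, where 2.19% (PTH) and 0.666% (YKL-05-093) of all genes did, and in PTH against YKL-05-093 5 were lower and 1 higher, where 5.14% and 4.88% of all genes were. Among those, Ankrd37, a hypoxia-induced gene, differed by −0.66 (SE 0.11, limma, adjusted p = 0.000868). Ddit4, a stress-induced inhibitor of mTOR signalling, differed by 0.32 (SE 0.08, limma, adjusted p = 0.0155), and Vegfa by 0.37. Of the 18 targets, 15 lay below 0 in this comparison and 3 above, beside 6668 and 7587 of all 14255 genes tested. In PTH against vehicle 14 lay below 0 and 4 above, beside 7737 and 6524 of 14261. Of the 7 tested pathway genes, 1 also passed lower in PTH against YKL-05-093. A link of Vegfa to this pathway was not tested.

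The 3 tested genes whose pattern over the 6 libraries was most like that of Pdgfa, by the root mean square difference of gene-centred log2(RPKM + 0.1), were Chst15 (0.235), Tmem229b (0.252) and Cd200 (0.254). Chst15, a chondroitin sulphate sulphotransferase gene, had 11.2 and 9.49 RPKM in vehicle, 2.28 and 2.36 under PTH and 3.90 and 4.34 under YKL-05-093. Tmem229b ranged from 0.188 to 1.59 RPKM, and Cd200, a cell surface ligand, from 1.01 to 5.42. In each the groups had the order of Pdgfa, with vehicle highest and PTH lowest. They were chosen for this likeness, so their agreement is no test.

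Markers were read to see which cells these levels came from. Of the osteocyte markers, Pdpn, Col1a1 and Pth1r were abundant (53.1 to 171, 259 to 430 and 33.4 to 70.7 RPKM), Dmp1 had 21 to 89 reads and Sost 0 to 3, so the mature marker Sost was at the limit of detection. The study describes Bglap and Col1a1 as genes that osteoblasts express, so the list is not particular to osteocytes. In each library 2 or 3 of the 10 osteocyte markers, not Sost alone, had 3 reads or fewer. The 10 osteocyte markers summed to 434.3 to 520.4 RPKM in vehicle, 649.2 to 740.0 under PTH and 531.0 to 606.7 under YKL-05-093. Of 7 tested, 3 were called higher under PTH, Pdpn, Bglap and Bglap2, and none was called under YKL-05-093. The markers did not all move one way. Under PTH, 5 of the 7 had a log2 fold change above 0 and 2 below, from −0.68 to 1.58. Under YKL-05-093, 6 were above 0 and 1 below, from −0.87 to 1.53. Of all genes, 1.91% were called under PTH and 0.666% under YKL-05-093. The defining endothelial genes Cdh5 and Cldn5 were at 0 reads in all 6 libraries, and the 10 endothelial markers, Kdr included, summed to 0.935 to 1.40 RPKM in vehicle, 1.5 to 1.75 under PTH and 2.38 to 2.59 under YKL-05-093. Without Kdr the other 9, none of which passed the filter, summed to 0.822 and 0.459 RPKM in vehicle, 0.692 and 0.693 under PTH and 0.865 and 0.942 under YKL-05-093, so most of the difference in the sum was Kdr itself. Of 8 mural cell markers, which summed to 188.4 to 250.1 RPKM in vehicle, 169.3 to 185.3 under PTH and 228.3 to 231.2 under YKL-05-093, Kcnj8 was at 0 in all libraries, Rgs5 had 2 to 8 reads and Acta2 was abundant, and Mcam, an adhesion molecule, was called higher in both comparisons with vehicle (log2 fold changes 2.23 and 2.15). The haematopoietic marker Ptprc had 2 to 6 reads, and the 6 haematopoietic markers summed to 4.00 to 4.87 RPKM, nearly all of it Cd68. In bulk RNA, fewer cells that make a transcript and less of it per cell cannot be told apart.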

How the data were processed

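RNA of 6 Ocy454 libraries (ribosomal RNA depletion, strand-specific kit) was sequenced on an Illumina instrument. Per the study's methods, the authors mapped reads to mm10 with STAR and counted them per gene with HTSeq; the submitters' processing notes also name CASAVA 1.7. The values deposited by the authors are RPKM for 39179 genes, with no counts beside them. Each RPKM column was found to be whole reads over a gene length: all 122175 values above 0 (100%) came out whole within a relative tolerance of 1e-09, and the recovered reads were used to show depth and for the trend of the variance. A gene above 0 in only 1 library was fitted from that value alone, so its agreement is largely built in. The recovered reads summed to 99.66% to 99.69% of the library totals, and the cause of the gap was not tested.

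The 10 genes and all gene lists were chosen with earlier results of these data known. The filter kept 14264 genes that reached 0.5 RPKM in 2 or more of 6 libraries, and log2(RPKM + 0.1) was compared in limma 3.58.1 (R 4.3.3), with a separate fit of the 4 libraries of each comparison, moderated variances trended on mean log2 reads and Benjamini-Hochberg adjustment over all genes tested. Calls needed more than 2-fold and an adjusted p under 0.05. A fold change on this scale understates the change of low genes. All members, every other ligand and receptor of the families, and called genes of the fixed lists were named, with the 3 genes most like each called member. Alternatives were other pseudocounts (0.01 and 1), no filter or one at 0.1 RPKM, 1 fit of all 6 libraries, a replicate block, median centring, a trend on mean value, voom on recovered reads with trimmed-mean scaling, and leaving out each library. Positions are from GENCODE M21 (GRCm38) and promoter sequences from RefSeq (GRCm38.p6).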

Additional observations from a re-analysis of the deposited data

How the results depend on the processing

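With no filter on low values, 0 genes were called by limma against vehicle under PTH and 0 under YKL-05-093 (2341 and 1735 at an unadjusted p under 0.05), and 0 of the members. Genes called under PTH numbered 272, and 160 with the trend on mean value. Those under YKL-05-093 numbered 95, and 55 with a pseudocount of 1, 57 with a filter at 0.1 RPKM, 173 with 1 fit of all 6 libraries and 6 with the trend on mean value. Those in PTH against YKL-05-093 numbered 172, and 98 with a pseudocount of 1, 102 with 1 fit of all 6 libraries and 1427 with no limit on the fold, when 4 members passed. Pdgfa was not called under YKL-05-093, leaving 0 members, with the filter at 0.1 RPKM (limma, adjusted p = 0.0507), with median centring (0.0518), with the trend on mean value (0.0961) or with no filter (0.189), and under PTH with no filter (0.0558); its adjusted p ran from 1.21e-23 to 0.0591 for PTH and from 0.00011 to 0.712 for YKL-05-093. Over leaving out each library, the genes called ranged from 14 to 671 under PTH, from 11 to 320 under YKL-05-093 and from 0 to 155 in PTH against YKL-05-093, and the members called from 0 to 1 in each. Pdgfra in PTH against YKL-05-093 turned from 0.0086 to −0.014 with median centring. Leaving out 1 library turned the sign of values that were not called, which then ranged in PTH against vehicle Pdgfd from −0.16 to 0.055, Pdgfra from −0.46 to 0.34, Pdgfrb from −0.17 to 0.37, Flt1 from −0.65 to 0.051, Nrp2 from −0.50 to 0.22, and in YKL-05-093 against vehicle Pdgfra from −0.47 to 0.34, Pdgfrb from −0.47 to 0.070, Flt4 from −0.28 to 0.0013, Nrp2 from −0.17 to 0.55, and in PTH against YKL-05-093 Pdgfc from −0.27 to 0.035, Pdgfra from −0.051 to 0.069, Flt4 from −0.14 to 0.046, Plau from −0.15 to 0.0053, Thbs1 from −0.12 to 0.028, 6330403L08Rik from −0.34 to 0.15. The cause of these changes was not tested, other than that a lower filter tests more genes.

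The labels do not say whether the replicate numbers pair the libraries. The correlations of the differences between replicates 1 and 2 over genes were −0.03, −0.05 and −0.05 between groups, and 2 pairs cannot settle it. With the replicate block, 441 genes were called under PTH and 215 under YKL-05-093, Nrp1 became called under YKL-05-093 (limma, adjusted p = 0.000993), and Pdgfa stayed the 1 member called in each comparison. Of 897 values of all named genes under alternatives, 783 kept their direction and side of the call, 87 were no longer called, 5 became called and 22 turned sign. Of 312 values of the members, 290 kept their direction and side of the call, most of them of genes that were not called in the first place. The 11 that lost a call were all of Pdgfa, the 1 member called. They were 3 for PTH, 6 for YKL-05-093 and 2 for PTH against YKL-05-093, of 13 alternatives each. Depth limits Pdgfb and Vegfc, at 5 to 29 reads.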
